A study of Mus musculus with 12 samples.

Results

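The 10 genes described here encode enzymes of mitochondrial folate metabolism and of serine and asparagine synthesis, together with the transcription factors and targets of the ATF4 stress response. They are Aldh1l2, Mthfd2, Shmt2, Psat1, Phgdh, Asns, Trib3, Ddit3, Atf4 and Atf5. They were taken by symbol from the 54839 features of the deposited count table, and 10 of 10 were present and passed edgeR's expression filter. The list was built around Aldh1l2, which was selected on its rise in Tom+ over Tom- hepatocytes of CCl4-treated mice. The values of the 10 genes in that comparison are therefore given as a description, without a test.

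Bulk RNA-seq was performed on sorted hepatocytes of male p16-Tom mice on a C57BL/6 background, in 4 groups of 3 libraries. All groups carried the same alleles, a tamoxifen-dependent Cre recombinase expressed from the p16Ink4a locus and a Cre-dependent tdTomato reporter, and all were given tamoxifen at 80 mg/kg. Hepatocytes without tdTomato (Tom-) and with it (Tom+) were collected from mice given corn oil, which gave the groups Tom- oil and Tom+ oil, and from mice given CCl4, which gave Tom- CCl4 and Tom+ CCl4. CCl4, a hepatotoxin whose damage centres on the pericentral hepatocytes, was injected at 1 mL/kg every 3 days for 4 weeks as a 20% dilution in corn oil. The reporter marks cells in which the p16Ink4a promoter was active while tamoxifen was present, so a Tom+ cell need not express p16Ink4a at the time of collection. The ages of the mice are not given in the sources used here. Nothing in these sources ties replicate numbers to separate mice, so the p-values measure the spread between these libraries, which may be technical.

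Folate carries single-carbon units in separate cytosolic and mitochondrial pools. In mitochondria, SHMT2 takes such a unit from serine, MTHFD2 oxidises the folate that carries it, and ALDH1L2 releases it as carbon dioxide while forming NADPH. Serine itself is made from a glycolytic intermediate by PHGDH, PSAT1 and PSPH. ATF4, whose mRNA is translated preferentially when the initiation factor eIF2alpha is phosphorylated, activates many of these enzyme genes along with Asns, Trib3 and Ddit3. Its protein level can therefore change while its mRNA does not.

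Total counts per library ranged from 37568584 to 75331424. Levels are given in CPM, counts scaled to library size with edgeR's TMM factors, and differences as log2 fold changes with their standard errors (SE) from edgeR's quasi-likelihood fit. Calls needed an adjusted p-value (Benjamini-Hochberg, over 17121 genes) under 0.05 and a log2 fold change beyond 0.75. The libraries labelled Tom- oil replicate 1 and Tom+ oil replicate 2 went against their labels, since the feature taken as the tdTomato reporter was at 1794 CPM in the first and at 135 CPM in the second. The other oil libraries had 157 and 143 CPM as Tom- and 1546 and 1225 CPM as Tom+. Differences from oil are given with both libraries and without them. The hepatocyte markers, 9 genes including Alb, summed to between 110933 and 164312 CPM, whereas of 6 cholangiocyte genes Krt19, Krt7, Epcam and Cftr were at 0 in 8, 7, 7 and 10 of the 12 libraries, and Sox9 and Spp1 were detected in every library, at up to 5.41 and 14.6 CPM.

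A short DNA element with the core TGATGNAA, to which ATF4 binds together with C/EBP proteins, lies near the start of several amino acid response genes. It was searched on both strands in the promoter windows of RefSeq, 250 bases before to 50 after each start site on GRCm38.p6. A window was listed for 9 of the 10 genes, the exception being Aldh1l2. Matches were found in 2 of the 9, Asns and Trib3, against 4.51% of 27025 genes with a window. The core was not searched outside these windows, so its absence from the other 7 genes is not shown. The sites are printed as the matches found in the windows, each as 30 bases in the direction of the gene with the match in capitals:
Asns: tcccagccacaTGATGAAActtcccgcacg
Trib3: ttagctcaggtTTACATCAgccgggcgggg
The Asns stretch, chr6:7693214-7693243 on the minus strand, reads in the direction of the gene and its match begins 23 bases before the RefSeq start. The Trib3 stretch, chr2:152344028-152344057 on the minus strand, holds the core on the opposite strand, beginning 14 bases after the start. These matches describe letters in a window and are not evidence of binding.

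Per length of transcript the 10 genes covered a wide range of levels. In TPM computed from the rounded counts and the deposited lengths, the mean over the 12 libraries was 369 ± 40.1 TPM (SD, n = 12) for Atf5, 134 ± 16.2 TPM (SD, n = 12) for Shmt2 and 54.4 ± 6.98 TPM (SD, n = 12) for Atf4. Ddit3 followed with 7.36 ± 1.99 TPM (SD, n = 12), and the ranges of these 4 genes over the libraries did not overlap each other. Ddit3 stood only just above Trib3, its lowest value being 4.81 TPM and the highest of Trib3 being 4.66 TPM. Trib3, Asns, Mthfd2, Psat1, Aldh1l2 and Phgdh followed in that order, with means of 2.82, 1.52, 0.98, 0.62, 0.57 and 0.12 TPM, and each of them overlapped its neighbour in range. The low level of these 6 genes limits the precision of every difference described for them.

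The mitochondrial enzymes differed from their cytosolic relatives in level. Aldh1l1, the cytosolic relative of Aldh1l2, ranged from 455 to 995 TPM over the libraries, against 0.056 to 2.83 TPM for Aldh1l2. Shmt1 and Shmt2, the cytosolic and mitochondrial serine hydroxymethyltransferases, overlapped, with 112 to 199 TPM and 109 to 152 TPM. Mthfd1, the cytosolic enzyme that joins several folate steps, ranged from 117 to 222 TPM. Of its mitochondrial relatives, Mthfd2 ranged from 0.37 to 2.08 TPM, Mthfd2l from 0.27 to 0.77 TPM and Mthfd1l from 0.089 to 0.69 TPM. In these sorted hepatocytes the cytosolic genes and Shmt2 were thus at 109 TPM or more in each of the 12 libraries and the other mitochondrial genes at 2.83 TPM or less. The TPM scale moved the median gene of Tom+ CCl4 up by 0.23 (log2) relative to Tom- CCl4 compared with CPM, so groups are compared below in CPM only.

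**Figure D1:**
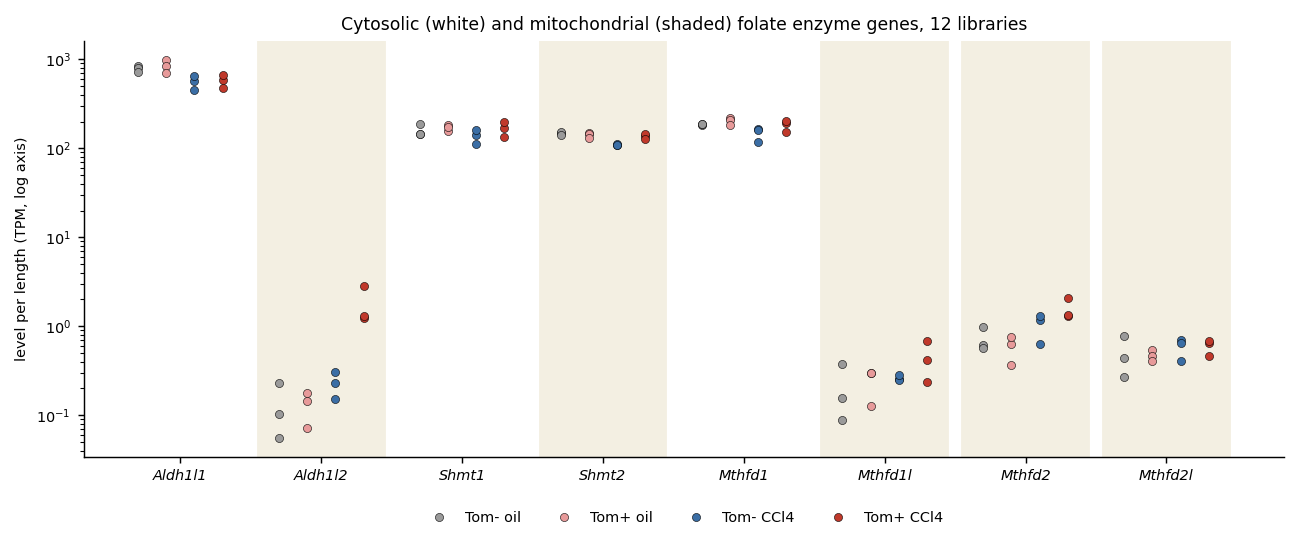
Level per length (TPM, log axis) of 8 folate enzyme genes in the 12 libraries, 1 point per library coloured by group, with mitochondrial enzymes on a shaded ground. Aldh1l1, Shmt1, Shmt2 and Mthfd1 lie at 109 TPM or more, and Aldh1l2, Mthfd1l, Mthfd2 and Mthfd2l lie at 2.83 TPM or less in every library.

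Aldh1l2 (ENSMUSG00000020256, chromosome 10, 83487450 to 83534140) was at 0.34, 0.17 and 0.72 CPM in Tom- oil and at 0.45, 0.23 and 0.59 CPM in Tom+ oil, for replicates 1, 2 and 3. It was at 0.51, 0.77 and 1.10 CPM in Tom- CCl4 and at 3.50, 3.69 and 8.60 CPM in Tom+ CCl4. The 3 Tom+ CCl4 libraries lay above the 9 others, and replicate 3 of that group was the highest. The counts behind these levels were 9 to 52 in the 9 lower libraries and 284, 169 and 412 in Tom+ CCl4. The log2 fold change of Tom+ over Tom- in CCl4, on which the gene was chosen, was 2.72 (SE 0.50), and it was 2.17 without Tom+ CCl4 replicate 3. Against oil the log2 fold change was 3.65 (SE 0.53) in Tom+ and 0.95 (SE 0.54) in Tom-, 3.36 and 0.85 without both oil libraries whose reporter went against the label. These differences share the libraries on which the gene was chosen and are given without a p-value. In oil, which the choice did not use, the log2 fold change was 0.02 (SE 0.56, adjusted p = 0.997 from edgeR), and 0.20 without both libraries (adjusted p = 0.997).

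The 3' end of Aldh1l2 overlaps D10Wsu102e on the opposite strand over 1056 bases. D10Wsu102e ranged from 11.6 to 16.4 CPM over the 12 libraries. The strand setting of the counting is not given in the sources used here, so reads of this stretch could belong to either gene.

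Mthfd2 (ENSMUSG00000005667, chromosome 6, 83305691 to 83325908) was at 0.95, 0.83 and 1.43 CPM in Tom- oil, 0.90, 0.55 and 1.18 CPM in Tom+ oil, 0.99, 1.85 and 2.13 CPM in Tom- CCl4, and 1.72, 1.79 and 2.94 CPM in Tom+ CCl4. In Tom+ hepatocytes the CCl4 libraries lay above the oil libraries, whereas in Tom- hepatocytes they overlapped. Mthfd2 rose with CCl4 in Tom+ by 1.30 on the log2 scale (SE 0.37, adjusted p = 0.0416 from edgeR). Without both oil libraries the log2 fold change was 1.07 (adjusted p = 0.171), close in size and no longer called. The call was also lost without Tom+ oil replicate 1, Tom+ oil replicate 2, Tom+ CCl4 replicate 2 or Tom+ CCl4 replicate 3, each taken out alone. It was lost as well in a fit of the 6 libraries of the contrast. With the Tom+ and Tom- libraries of each number summed, the log2 fold change was 0.99 (SE 0.30, adjusted p = 0.0744) and not called. In Tom- the log2 fold change with CCl4 was 0.63 (SE 0.37, adjusted p = 0.265), with an adjusted p of 0.427 without both libraries. In oil the log2 fold change of Tom+ over Tom- was -0.30 (adjusted p = 0.907), and in CCl4, as a description, it was 0.37 (SE 0.36). Mthfd2 overlaps Gm43890 on the same strand, a feature with at most 0.27 CPM.

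Shmt2 (ENSMUSG00000025403, chromosome 10, 127517123 to 127522444) was at 205, 196 and 182 CPM in Tom- oil, 191, 196 and 181 CPM in Tom+ oil, 151, 155 and 161 CPM in Tom- CCl4, and 162, 172 and 162 CPM in Tom+ CCl4. Each CCl4 library lay below each oil library. In Tom- the log2 fold change with CCl4 was -0.32 (SE 0.08, adjusted p = 0.0142 from edgeR), past the threshold on p and short of the threshold on size. In Tom+ it was -0.19 (SE 0.08, adjusted p = 0.145). With both oil libraries left out the values were -0.28 (adjusted p = 0.0607) and -0.16 (adjusted p = 0.321). The values of Shmt2 and Mthfd2, which act in succession on the same folate, had opposite signs with CCl4 in Tom+, and that of Shmt2 did not pass the test there. In oil the log2 fold change of Tom+ over Tom- was -0.04 (SE 0.08, adjusted p = 0.938), and in CCl4, as a description, 0.09 (SE 0.08).

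Phgdh (ENSMUSG00000053398, chromosome 3, 98313170 to 98339990), the gene of the first enzyme of serine synthesis, was near the limit of detection. It had 0, 0 and 4 counts in Tom- oil, 0, 6 and 0 in Tom+ oil, 4, 4 and 16 in Tom- CCl4, and 20, 0 and 22 in Tom+ CCl4. Of the 12 libraries 5 were at 0, among them a Tom+ CCl4 library of 43082749 counts, where a count of 0 allows up to 0.065 CPM. That limit covers counting error only, as do the other counting limits given here. At this depth no difference between groups was detectable, with adjusted p = 0.255 for CCl4 against oil in Tom-, 0.276 in Tom+ and 0.978 for Tom+ against Tom- in oil (edgeR), and 0.430, 0.155 and 0.903 without both oil libraries.

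Psat1 (ENSMUSG00000024640, chromosome 19, 15904678 to 15947337), the gene of the next enzyme of that route, was at 0.47, 0.47 and 0.37 CPM in Tom- oil, 0.39, 0.27 and 0.78 CPM in Tom+ oil, 1.01, 1.05 and 2.32 CPM in Tom- CCl4, and 1.13, 2.53 and 2.36 CPM in Tom+ CCl4. The 6 CCl4 libraries lay above the 6 oil libraries, with 14 to 32 counts per library in oil and 38 to 116 with CCl4. Psat1 rose by 1.75 on the log2 scale in Tom- (SE 0.47, adjusted p = 0.0226) and by 2.08 in Tom+ (SE 0.46, adjusted p = 0.0130 from edgeR). Without both oil libraries the log2 fold changes were 1.81 and 1.80 (adjusted p = 0.0583 and 0.0736), the size being kept and the call lost. The call in Tom- was also lost with limma-voom, and without Tom- oil replicate 1, 2 or 3 or Tom- CCl4 replicate 3, each taken out alone. The call in Tom+ was lost without Tom+ oil replicate 1, Tom+ oil replicate 2 or Tom+ CCl4 replicate 2. With the fractions of each number summed, which does not depend on the fraction labels, the log2 fold change was 1.97 (SE 0.33, adjusted p = 0.0118). In oil the log2 fold change of Tom+ over Tom- was 0.12 (SE 0.48, adjusted p = 0.978), and in CCl4, as a description, 0.44 (SE 0.43). A pseudogene within Psat1, Gm3329, was at 0 in all 12 libraries.

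Asns (ENSMUSG00000029752, chromosome 6, 7675169 to 7693254), the asparagine synthetase gene, was at 1.27, 1.59 and 0.78 CPM in Tom- oil, 1.37, 2.04 and 0.83 CPM in Tom+ oil, 0.71, 0.97 and 2.22 CPM in Tom- CCl4, and 1.67, 2.03 and 5.34 CPM in Tom+ CCl4. The 4 groups overlapped, and Tom+ CCl4 replicate 3 had the highest level. In 3 of 3 CCl4 pairs the Tom+ library was the higher one. The log2 fold change of Tom+ over Tom- in CCl4 was 1.20, with a standard error of 0.22 with the pairs as a block and 0.53 without the block. The value was 0.50 without Tom+ CCl4 replicate 3 and 1.84 without Tom- CCl4 replicate 3, all as a description. In oil it was 0.23 (SE 0.53, adjusted p = 0.953 from edgeR), and against oil CCl4 gave 0.11 in Tom- (adjusted p = 0.910) and 1.08 in Tom+ (adjusted p = 0.226). With both oil libraries left out these were 0.14 (adjusted p = 0.913) and 1.43 (adjusted p = 0.244).

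Trib3 (ENSMUSG00000032715, chromosome 2, 152337422 to 152344032), a pseudokinase gene that ATF4 and CHOP activate, was at 4.38, 4.07 and 3.33 CPM in Tom- oil, 2.60, 2.56 and 3.67 CPM in Tom+ oil, 1.26, 2.63 and 1.06 CPM in Tom- CCl4, and 1.27, 1.77 and 1.84 CPM in Tom+ CCl4. In each fraction every CCl4 library was below every oil library. In Tom- Trib3 fell with CCl4 by 1.26 on the log2 scale (SE 0.31, adjusted p = 0.0155 from edgeR), while in Tom+ the log2 fold change was -0.86 (SE 0.31, adjusted p = 0.0983). Without both oil libraries the values were -1.17 (adjusted p = 0.0689) and -0.94 (adjusted p = 0.170). The call in Tom- was also lost without Tom- oil replicate 1, Tom- CCl4 replicate 1 or Tom- CCl4 replicate 3, each taken out alone. With the fractions summed it was -1.06 (SE 0.21, adjusted p = 0.0224). Asns, the other gene with a match to the core shown above, had a log2 fold change of 1.08 in Tom+. In oil the log2 fold change of Tom+ over Tom- was -0.42 (SE 0.30, adjusted p = 0.820), and in CCl4, as a description, -0.02 (SE 0.31).

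Ddit3 (ENSMUSG00000025408, chromosome 10, 127290774 to 127296288), which encodes the transcription factor CHOP, was at 4.56, 5.46 and 4.09 CPM in Tom- oil, 4.67, 3.55 and 4.36 CPM in Tom+ oil, 5.36, 8.71 and 8.64 CPM in Tom- CCl4, and 4.58, 4.37 and 6.18 CPM in Tom+ CCl4. Replicates 2 and 3 of Tom- CCl4 stood above the other 10 libraries. In Tom- the log2 fold change with CCl4 was 0.69 (SE 0.21, adjusted p = 0.0426 from edgeR), past the threshold on p and short of that on size. In Tom+ it was 0.26 (SE 0.21, adjusted p = 0.491). With both oil libraries left out the values were 0.67 (adjusted p = 0.119) and 0.16 (adjusted p = 0.785). Tom+ was lower than Tom- in 3 of 3 CCl4 pairs, with a log2 fold change of -0.59 (SE 0.21) as a description, opposite in sign to Aldh1l2 and Asns. In oil it was -0.17 (SE 0.21, adjusted p = 0.909). The table lists a second feature named Ddit3 that overlaps the first over 2925 bases, at 0.24 to 0.71 CPM, so that reads of the gene are divided. Ddit3 also overlaps Mars, a gene at 57.2 to 66.6 CPM, on the opposite strand over 68 bases, whose reads could belong to either gene. The level of Ddit3 is uncertain to the extent of these overlaps.

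Atf4 (ENSMUSG00000042406, chromosome 15, 80255184 to 80257541) was at 52.0, 50.4 and 44.5 CPM in Tom- oil, 54.6, 59.4 and 44.4 CPM in Tom+ oil, 60.5, 56.7 and 57.6 CPM in Tom- CCl4, and 57.8, 59.4 and 52.4 CPM in Tom+ CCl4. In Tom- the CCl4 libraries lay above the oil libraries by a small margin. Its log2 fold change with CCl4 was 0.25 in Tom- (SE 0.10, adjusted p = 0.119 from edgeR) and 0.10 in Tom+ (SE 0.10, adjusted p = 0.619), and without both oil libraries 0.30 (adjusted p = 0.112) and 0.20 (adjusted p = 0.355). Between Tom+ and Tom- it was 0.11 in oil (SE 0.10, adjusted p = 0.872) and, as a description, -0.04 in CCl4 (SE 0.10).

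Atf5 (ENSMUSG00000038539, chromosome 7, 44812256 to 44816658), a related factor linked to mitochondrial stress, was at 318, 303 and 343 CPM in Tom- oil, 283, 258 and 355 CPM in Tom+ oil, 344, 309 and 306 CPM in Tom- CCl4, and 334, 268 and 305 CPM in Tom+ CCl4. The 4 groups overlapped. Its log2 fold change with CCl4 was -0.01 in Tom- (SE 0.12, adjusted p = 0.980 from edgeR) and 0.02 in Tom+ (SE 0.12, adjusted p = 0.955), and between Tom+ and Tom- it was -0.10 in oil (SE 0.12, adjusted p = 0.901). Without both oil libraries the values with CCl4 were -0.01 (adjusted p = 0.975) and -0.07 (adjusted p = 0.828). Atf5 overlaps Nup62 over 571 bases and Il4i1 over 272 bases, each on the opposite strand.

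**Figure D2:**
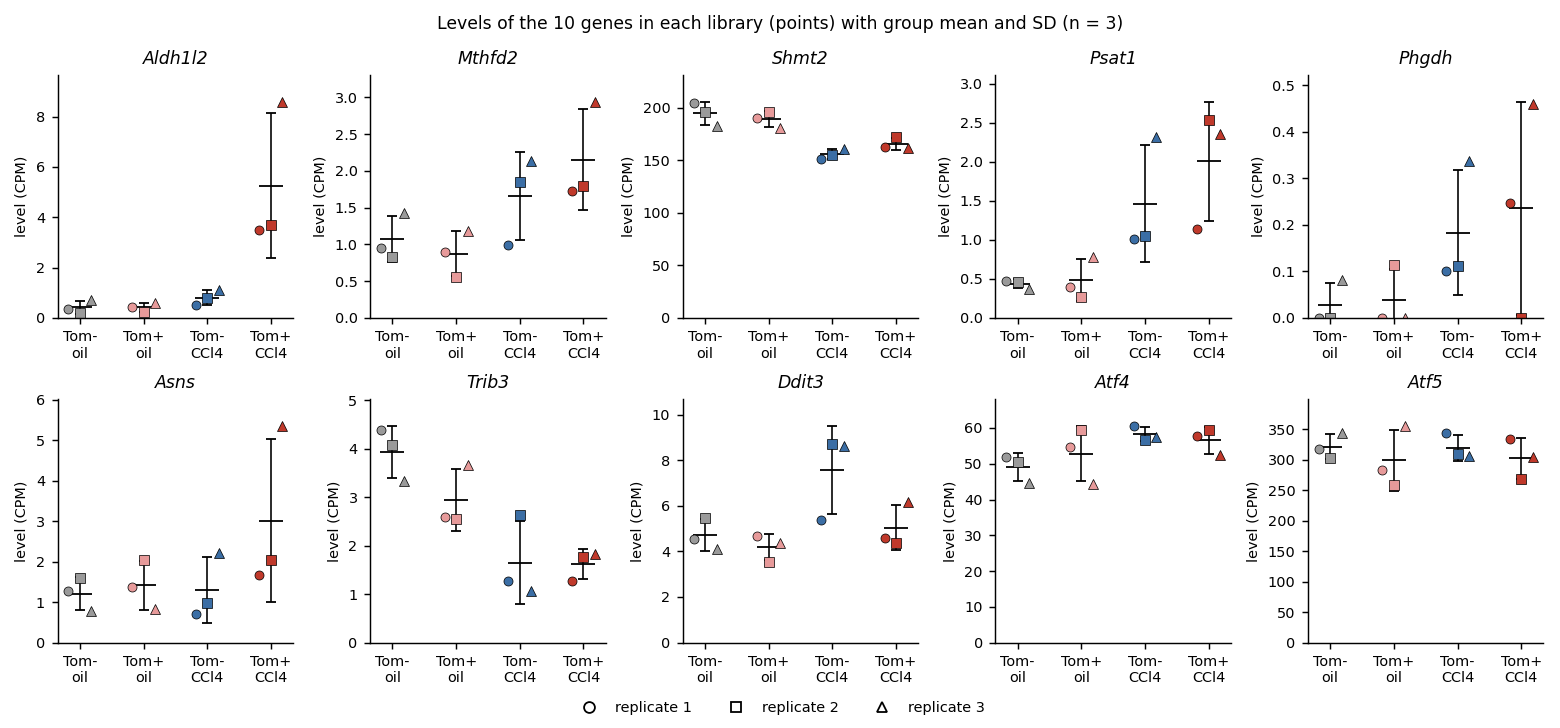
Level (CPM, linear axes from 0) of each of the 10 genes in the 12 libraries, with points shaped by replicate number and lines for the group mean and SD (n = 3, cut at 0). Aldh1l2 is high in the 3 Tom+ CCl4 libraries only (3.50 to 8.60 CPM), Psat1 is higher and Trib3 and Shmt2 are lower with CCl4, and Atf4 and Atf5 stay within 44.4 to 60.5 and 258 to 355 CPM.

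Counted over the list, 0 of the 10 genes were called between the libraries labelled Tom+ and Tom- in oil, against 0% of the 17121 genes tested (1198 of them at an unadjusted p-value under 0.05). None of the 10 had an unadjusted p-value under 0.05, and DESeq2 and limma-voom also called 0 of them. With the replicate block 0.234% of all genes and 0 of the 10 were called, and without both oil libraries whose reporter went against the label 0 of the 10 were, with adjusted p-values from 0.903 to 0.998. CCl4 against oil called 2 of the 10 in Tom-, Psat1 higher and Trib3 lower, against 7.92% of all genes, and 3 of the 10 in Tom+, Aldh1l2, Mthfd2 and Psat1, all higher, against 5.24%. Of those 3, Aldh1l2 was chosen on the same libraries. With both oil libraries left out 0 of the 10 were called in Tom- (5.46% of 17525 genes) and 1 in Tom+, Aldh1l2 (3.5%). The median log2 fold change of the list was 0.44 in Tom- and 0.67 in Tom+, against 0.005 and 0.002 over all genes tested. Both medians include Aldh1l2, chosen on the CCl4 libraries, and Phgdh, which was near the limit of detection, so nothing is read from them.

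Tom+ against Tom- in CCl4 was the contrast of the choice, so its counts only describe the genes and nothing is read from them. There Aldh1l2 lay beyond both thresholds, which 1.96% of all genes did, and with the replicate block Aldh1l2 and Asns did, beside 3.98% of all genes. The difference between the CCl4 and the oil contrast (the interaction) contains the contrast of the choice and is a description too. Of the 10 genes 0 lay beyond both thresholds in it (1.17% of all genes), and 1, Aldh1l2, with the block (5.48%). Its size for Aldh1l2 was 2.70 (SE 0.75, and 0.40 with the block). Within the list the log2 fold changes in the CCl4 contrast ranged from 2.72 for Aldh1l2 and 1.20 for Asns to -0.04 for Atf4 and -0.59 for Ddit3.

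**Figure D3:**
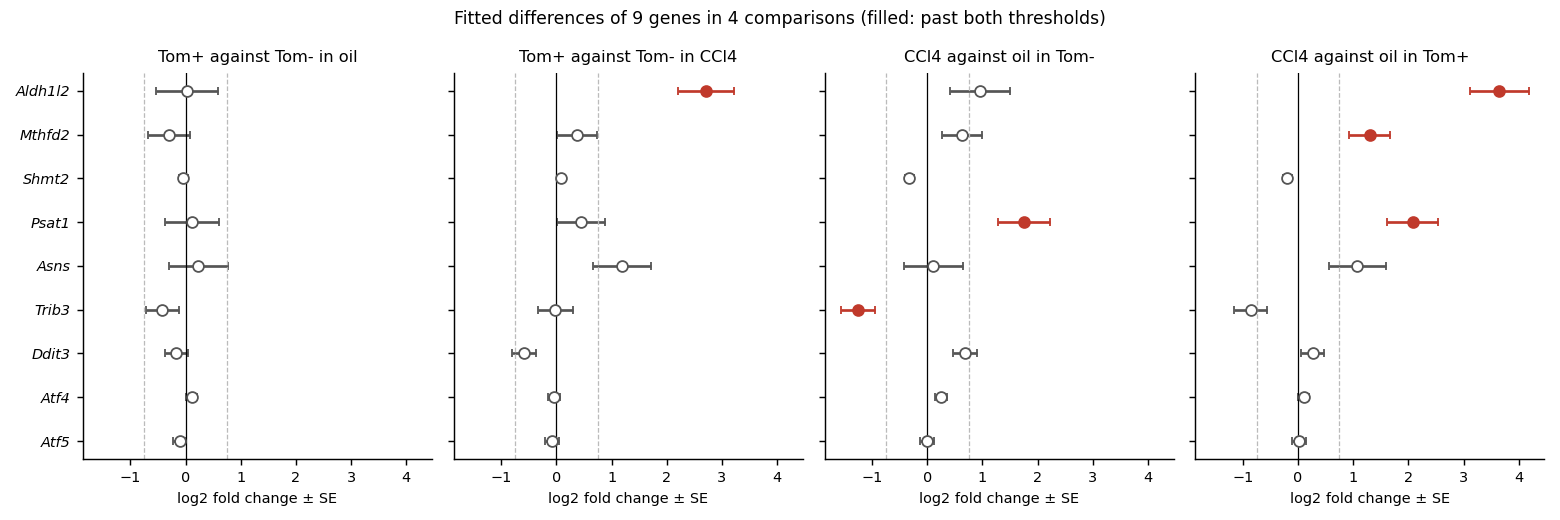
Log2 fold change with its standard error (bars) of 9 of the 10 genes in 4 comparisons, filled where both thresholds were passed and with dashed lines at a log2 fold change of 0.75 in either direction. Phgdh, with 0 to 22 counts, is left out, and the panel of Tom+ against Tom- in CCl4 is the contrast on which Aldh1l2 was chosen.

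Markers of liver zones and of other cell types moved with several of these differences, and their part in the results was not tested unless a value is given. The 12 zone 3 genes, typical of hepatocytes around the central vein, summed to 1945 to 3221 CPM in Tom- CCl4 and to 4186 to 5884 CPM in Tom+ CCl4. In edgeR's test 0 of these 12 were called there, with 3 at an unadjusted p-value under 0.05, beside 3901 of all 17121 genes tested. DESeq2 called 1 of the 12, whereas 8 were called higher in Tom+ with the replicate block. In oil the sums were 2260 to 5940 CPM in Tom- and 961 to 3064 CPM in Tom+. The 12 zone 1 genes, typical of hepatocytes around the portal vein, summed to 11276 to 14449 CPM in Tom- CCl4 and to 7727 to 9909 CPM in Tom+ CCl4, with 5 of 12 called lower in Tom+. Against oil, CCl4 called 8 of the 12 zone 1 genes lower and 6 of the 12 zone 3 genes higher in Tom+, beside 5.24% of all genes. The medians were -1.03 and 1.94, and without both oil libraries 10 and 8 were called. In Tom- 1 zone 1 gene was called higher and 1 zone 3 gene lower.

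The 10 Kupffer cell and macrophage genes summed to 123, 121 and 149 CPM in Tom- CCl4 and to 73.0, 69.8 and 208 CPM in Tom+ CCl4, and all 10 were detected in every library. Tom+ CCl4 replicate 3, the library highest in Aldh1l2, Asns and Mthfd2, was also the highest in these genes, and the other Tom+ CCl4 libraries were lower in them than each Tom- CCl4 library. The same replicate was also the highest library in the stellate cell sum (106 CPM) and the cholangiocyte sum (17.95 CPM). Within Tom+ CCl4 it was the highest in the zone 3 sum (5884 CPM) and the endothelial sum (198 CPM) too. In oil the macrophage sums were 17.4, 22.4 and 94.3 CPM in Tom- and 33.5, 29.9 and 140 CPM in Tom+. Since these are bulk libraries, fewer cells of a type and less RNA per cell cannot be told apart.

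The 8 endothelial genes summed to 111 to 169 CPM in Tom- oil and to 282 to 305 CPM in Tom- CCl4, and 8 of 8 were called higher with CCl4 in Tom-. In Tom+ the sums were 123 to 206 CPM with oil and 146 to 198 CPM with CCl4, and 0 of 8 were called by edgeR (0 at an unadjusted p-value under 0.05, and 0 by DESeq2). The 9 stellate cell genes summed to 7.52 to 18.02 CPM in Tom- oil, 71.3 to 90.3 CPM in Tom- CCl4, 8.86 to 23.6 CPM in Tom+ oil and 51.7 to 106 CPM in Tom+ CCl4, and 7 of 9 were called higher with CCl4 in Tom- and 5 of 9 in Tom+. The 7 lymphocyte genes summed to 0.41 to 4.46 CPM and the 6 cholangiocyte genes to 5.25 to 17.95 CPM over the 12 libraries. Only 1 of the lymphocyte genes and 2 of the cholangiocyte genes passed the expression filter and were tested. Of those tested edgeR called 1, Spp1, higher with CCl4 in Tom+, a call that limma-voom did not make and that was lost without both oil libraries.

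**Figure D4:**
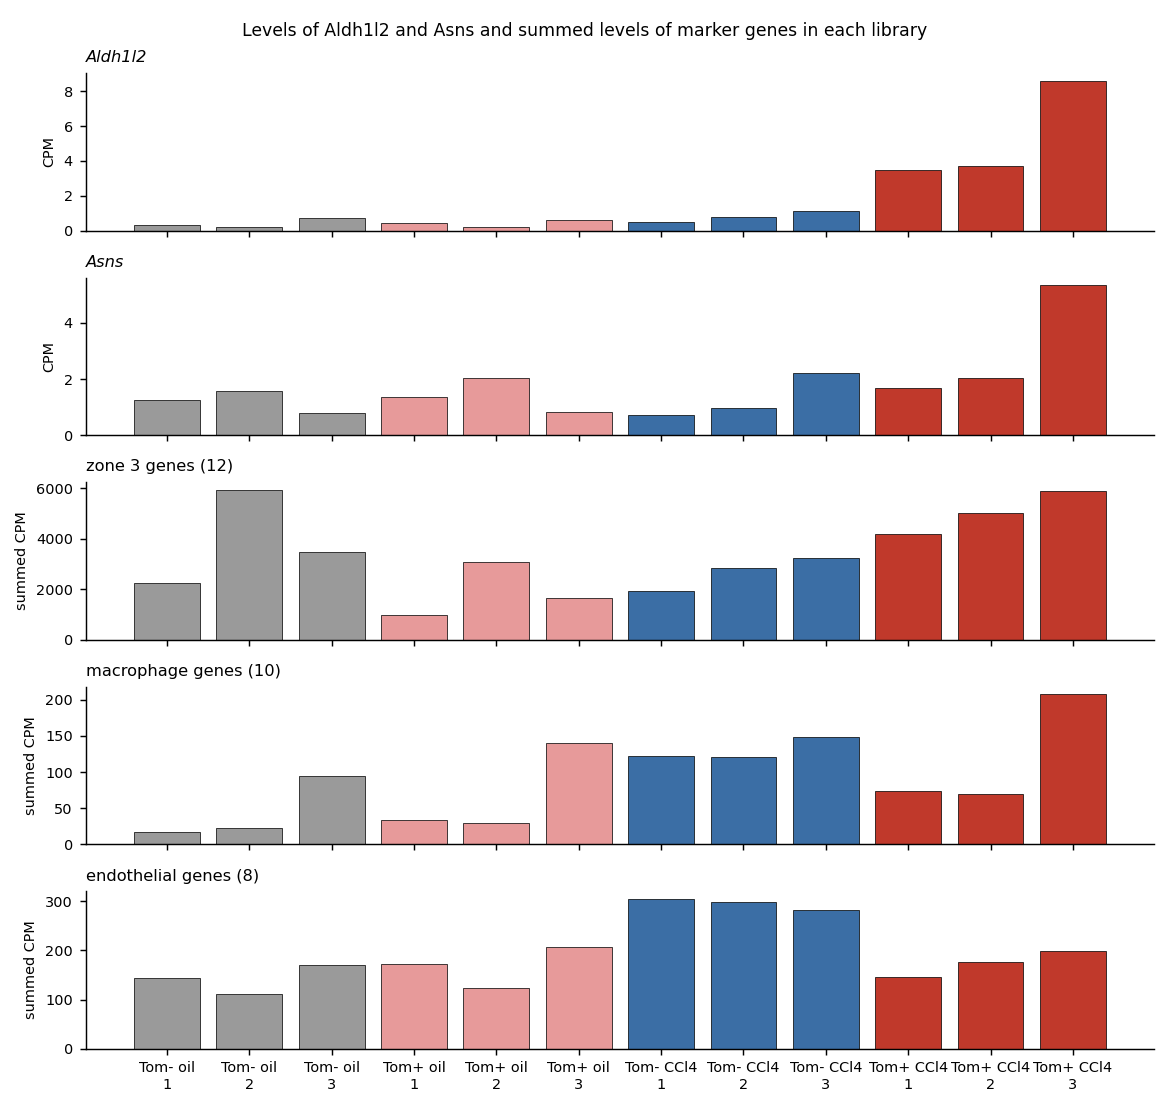
Level of Aldh1l2 and Asns (CPM) and summed level of 12 zone 3, 10 macrophage and 8 endothelial genes (summed CPM) in each of the 12 libraries, as bars from 0 coloured by group. Tom+ CCl4 replicate 3 is highest in Aldh1l2, Asns and the macrophage sum, and the other Tom+ CCl4 libraries have macrophage sums of 73.0 and 69.8 CPM. Within Tom+ CCl4, replicate 3 is also highest in the zone 3 and endothelial sums.

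The pattern of Aldh1l2 over the 12 libraries was compared with that of the 13061 other genes with a mean of at least 1 CPM, by the mean absolute difference of log2(CPM + 0.1) after centring each gene. The nearest were Gpx3, a secreted glutathione peroxidase gene, at 0.58, the imprinted gene Peg10 at 0.63, Adgrv1 at 0.67, Cyp7a1, the rate-limiting enzyme of bile acid synthesis, at 0.69, and the transcription factor gene Tcf7 at 0.69, against a median of 1.21 over all genes compared. Among the 10 genes themselves, Psat1 had a difference of 0.77 (rank 25), Mthfd2 of 0.84 (rank 69) and Asns of 0.996 (rank 465), while Trib3, at 1.64, had rank 12847. Phgdh was under the minimum level. The comparison uses the libraries on which Aldh1l2 was chosen, so genes high in Tom+ CCl4 come near it by construction. The ranks are a description and nothing is read from them.

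Beyond the 10 genes, 125 further genes of folate, serine, ATF4, eIF2alpha, mitochondrial and endoplasmic reticulum stress lists were followed, of which 120 were tested. In oil 0 of them were called by edgeR, with 5 at an unadjusted p-value under 0.05 (1198 of all 17121 genes tested) and 0 called by DESeq2. With the replicate block 1 was called, Vldlr, a lipoprotein receptor gene that ATF4 activates, with a log2 fold change of -1.57 (adjusted p = 0.0417), while without both oil libraries, and without the block, it was -3.34 and not called (adjusted p = 0.172). By the reporter only oil pair 3 compares the fractions as labelled, which limits the value with the block. CCl4 against oil called 4 higher and 2 lower in Tom-, 5% of those tested against 7.92% of all genes, and 7 higher and 6 lower in Tom+, 10.8% against 5.24%. Tom+ against Tom- in CCl4 called 3, all lower, 2.5% against 1.96%.

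Slc1a5, a neutral amino acid carrier, was at 3.41 ± 2.39 CPM (SD, n = 3) in Tom- oil and 17.4 ± 5.99 CPM (SD, n = 3) in Tom- CCl4, and it rose by 2.34 on the log2 scale in Tom- (SE 0.63, adjusted p = 0.0350 from edgeR) and by 2.48 in Tom+ (SE 0.62, adjusted p = 0.0382). Without both oil libraries the values were 1.98 (adjusted p = 0.0136) and 3.41 (adjusted p = 0.0019). Slc1a4, which carries serine and alanine, was at 5.70 ± 4.84 CPM (SD, n = 3) in Tom+ oil and 62.7 ± 7.05 CPM (SD, n = 3) in Tom+ CCl4, a rise of 3.46 (SE 0.63, adjusted p = 0.0116). In Tom- its log2 fold change was 1.76 (adjusted p = 0.0789), and without both oil libraries it was called in both fractions, at 1.40 in Tom- (adjusted p = 0.00981) and 4.42 in Tom+ (adjusted p = 3.91e-05). The glycine carrier Slc6a9 rose in Tom+ by 0.80 (SE 0.16, adjusted p = 0.00704), and its log2 fold change in Tom- was nearly the same at 0.747 (SE 0.16, adjusted p = 0.00702), just short of the threshold on size. With both oil libraries left out these were 0.88 (adjusted p = 0.0174) and 0.66 (adjusted p = 0.0393).

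Of 16 further serine and glycine genes tested, 2 were called lower in Tom+ than in Tom- in CCl4, Sds and Sdsl, and the median of the list was -0.18. Slc1a4 went the other way, with a log2 fold change of 1.06 (SE 0.57, adjusted p = 0.313 from edgeR). It was not called with the replicate block (1.10, adjusted p = 0.0713). When both oil libraries were left out of the fit it was called higher (1.05, adjusted p = 0.0217). Sds, the gene of serine dehydratase, averaged 254 ± 51.8 CPM (SD, n = 3) in Tom- CCl4 and 96.8 ± 26.2 CPM (SD, n = 3) in Tom+ CCl4, a log2 fold change of -1.39 (SE 0.21, adjusted p = 0.00625 from edgeR). Its neighbour and relative Sdsl was at 8.79 ± 0.93 CPM (SD, n = 3) and 4.06 ± 0.34 CPM (SD, n = 3), with -1.11 (SE 0.18, adjusted p = 0.00672). Against oil Sds fell by 1.93 and Sdsl by 1.67 in Tom+ (adjusted p = 0.0002 and 0.000109, and 0.000871 and 0.00016 without both oil libraries), whereas in Tom- the log2 fold change of Sds was -0.36 (adjusted p = 0.250) and that of Sdsl -0.57 (adjusted p = 0.0427, short on size, and 0.150 without both oil libraries). Sds is also 1 of the 12 zone 1 genes above, of which 5 were called lower in Tom+ than in Tom- in CCl4. With CCl4 against oil in Tom+ 8 of those 12 were called lower.

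Of the other 11 mitochondrial folate genes, 11 were tested and 1 was called, Sfxn1, a mitochondrial serine carrier gene, which fell by 0.85 in Tom+ with CCl4 (SE 0.15, adjusted p = 0.00459 from edgeR) and by 0.93 without both oil libraries (adjusted p = 0.00288). Of 18 cytosolic folate genes tested, Ftcd, which links histidine breakdown to folate, was at 462 ± 44.1 CPM (SD, n = 3) in Tom- CCl4 and 206 ± 34.2 CPM (SD, n = 3) in Tom+ CCl4. Its log2 fold change was -1.17 (SE 0.12, adjusted p = 0.00129), and against oil in Tom+ it fell by 1.27 (adjusted p = 4.42e-05) and by 1.29 without both oil libraries (adjusted p = 0.000569). Bhmt, which remethylates homocysteine, fell by 0.87 with CCl4 in Tom- (SE 0.26, adjusted p = 0.0386), and without both oil libraries the log2 fold change was -0.81 and no longer called (adjusted p = 0.147). Aldh1l1 had a log2 fold change of -0.68 in Tom+ with CCl4 (SE 0.14, adjusted p = 0.0101, and -0.67 with 0.0398 without both oil libraries), past the threshold on p and short of that on size.

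Of 35 further ATF4 targets tested, 3 were called higher and 1 lower with CCl4 in Tom-, and 4 higher and 1 lower in Tom+, beside 7.92% and 5.24% of all genes tested. Pck2, the mitochondrial phosphoenolpyruvate carboxykinase, rose by 1.70 in Tom- (SE 0.37, adjusted p = 0.00955 from edgeR) and by 1.78 in Tom+ (SE 0.37, adjusted p = 0.0104), and it was called in both without both oil libraries (1.72 and 1.95, adjusted p = 0.0463 and 0.0405). Slc7a5, a large neutral amino acid carrier, rose by 1.11 (adjusted p = 0.0107) and by 1.16 (adjusted p = 0.0104), the call in Tom+ being lost without both oil libraries (1.08, adjusted p = 0.0605). Aldh18a1, an enzyme of proline synthesis, rose in Tom+ by 2.39 (SE 0.68, adjusted p = 0.0424), from 6 to 14 counts per oil library, and the call was lost without both oil libraries (2.12, adjusted p = 0.126). The arginine carrier Slc7a1 rose in Tom- by 2.92 (SE 0.66, adjusted p = 0.0102), from 2 to 4 counts per oil library to 13 to 40 per CCl4 library, with 3.21 (adjusted p = 0.0352) without both oil libraries. Got1, an aspartate aminotransferase, fell by 0.84 in Tom- (adjusted p = 0.0312) and by 1.47 in Tom+ (adjusted p = 0.00315), and without both oil libraries the values were -0.71 (adjusted p = 0.130, no longer called) and -1.56 (adjusted p = 0.0116).

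Vldlr was at 0.55 ± 0.65 CPM (SD, n = 3) in Tom+ oil and 5.37 ± 1.39 CPM (SD, n = 3) in Tom+ CCl4, and it rose by 3.28 with CCl4 in Tom+ (SE 0.76, adjusted p = 0.0226 from edgeR) and by 4.89 without both oil libraries (adjusted p = 0.000765). In Tom- it was at 1.42 ± 1.05 CPM (SD, n = 3) with oil and 1.17 ± 0.49 CPM (SD, n = 3) with CCl4. Between Tom+ and Tom- in CCl4 its log2 fold change was 2.20 (SE 0.72, adjusted p = 0.0998), and it was called with the replicate block (2.23, adjusted p = 0.000145) and when both oil libraries were left out of the fit (2.19, adjusted p = 0.0139). Atf3, Chac1, Sesn2, Fgf21 and Gdf15, further targets named after their values were seen, were called by edgeR, without the block, in none of the 4 comparisons, with adjusted p-values for CCl4 against oil from 0.131 to 0.885. Because they were picked with these values known, the lack of calls says nothing about the list as a whole. With the replicate numbers as a block across treatments, Fgf21 was called higher with CCl4 in both fractions.

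Of 14 genes of the eIF2alpha arm, which holds the eIF2alpha kinases, the eIF2B subunits and the mitochondrial relay Oma1 and Dele1, 0 were called by edgeR in any comparison, and 0 by DESeq2. With CCl4 7 of them had an unadjusted p-value under 0.05 in Tom- and 3 in Tom+, beside 5388 and 4169 of all 17121 genes tested. Of 13 mitochondrial chaperone and protease genes, 0 were called by either tool, with 7 and 2 at an unadjusted p-value under 0.05, and their log2 fold changes with CCl4 ranged from -0.51 to 0.01 in Tom- and from -0.22 to 0.09 in Tom+. Of 14 genes of the other arms of endoplasmic reticulum stress, 1 was called by edgeR, Sdf2l1, a chaperone partner, which fell by 1.09 with CCl4 in Tom+ (SE 0.27, adjusted p = 0.0312), a call lost without both oil libraries (-0.99, adjusted p = 0.119). Sdf2l1 averaged 46.5 CPM in Tom- oil and 25.8 CPM in Tom- CCl4. There edgeR called 0 of the 14, while DESeq2, limma-voom and the replicate block each called 1. The medians of the 35 ATF4 targets with CCl4 were 0.002 in Tom- and 0.09 in Tom+, near those of all genes tested.

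**Figure D5:**
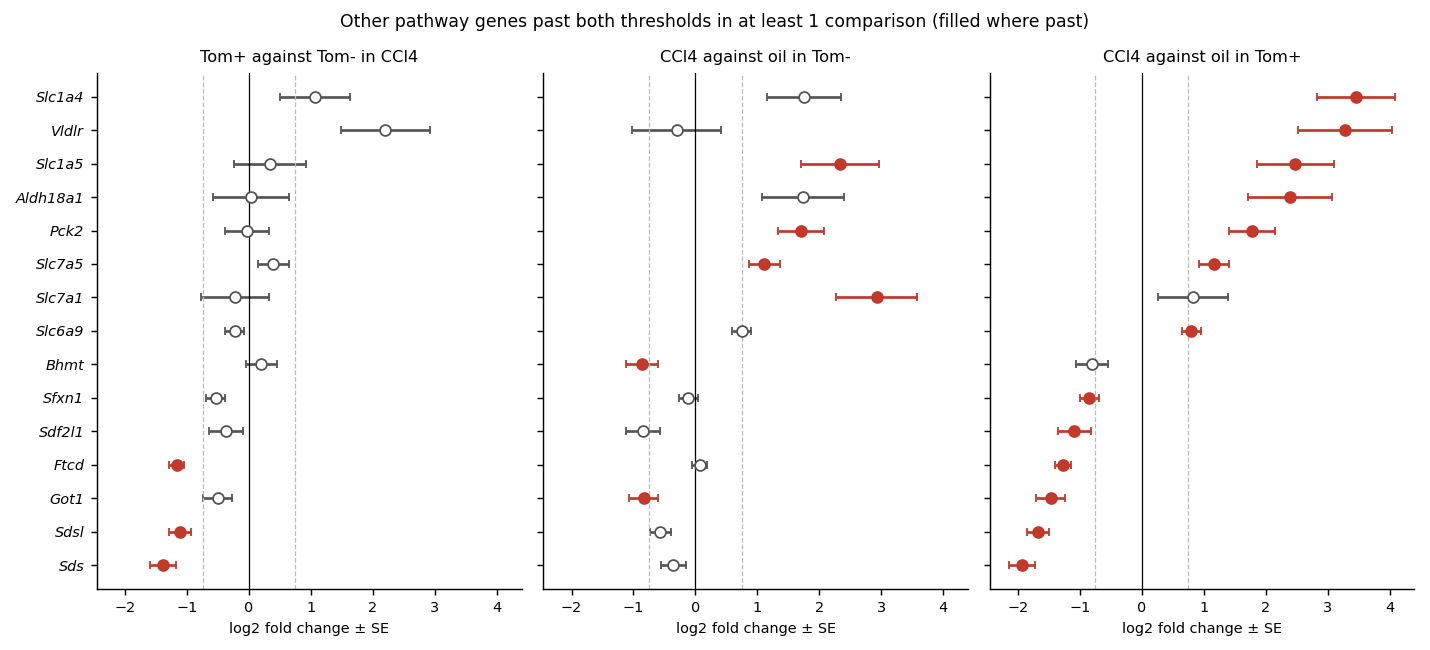
Log2 fold change with its standard error (bars) of the 15 further pathway genes called in at least 1 comparison, filled where both thresholds were passed, ordered by the value in Tom+ with CCl4. With CCl4 in Tom+ Slc1a4, Vldlr, Slc1a5 and Pck2 lie at 3.46, 3.28, 2.48 and 1.78, and Sds, Sdsl and Ftcd lie at -1.39, -1.11 and -1.17 between Tom+ and Tom- in CCl4.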

How the data were processed

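Per the labels, polyA RNA of Tom+ and Tom- hepatocytes was sequenced as strand-specific libraries in 4 groups of 3. Per the submitters' processing notes, the authors used fastp (v0.23.2), HISAT2 (v2.1.0) and DESeq2 (v1.42.1) with the mm10 genome build. The counting program, its strand setting and the annotation release are not given in the sources used here. The authors deposited expected counts per feature, not normalized, with feature positions and lengths. They were rounded to whole numbers, since 30.4% to 32.9% of the values above 0 in each library carried a fraction. Total counts were 37568584 to 75331424 per library. The spans of 10 of 10 genes equal those of GENCODE M21 on GRCm38 (mm10).

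R (v4.3.3) and edgeR (v4.0.16) were used with TMM factors, filterByExpr (17121 genes) and robust quasi-likelihood tests of a single 12-library model having 1 coefficient for each group. The thresholds were those of the study, 0.05 on the adjusted p-value (Benjamini-Hochberg) with 0.75 on the size of the log2 fold change. Standard errors came from the fit. The script was tested on simulated data. Alternatives were RLE factors, no filter, at least 10 counts in every library, DESeq2 (v1.42.0), limma-voom (limma v3.58.1), the adjusted p-value alone, the 6 libraries of a contrast, fractions summed by number, the replicate block, leaving out both oil libraries that went against their label, and leaving out each library in turn. Figures were drawn with matplotlib (v3.10.9).

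Replicate numbers come from the labels. Over 13062 genes, the deviations of a Tom+ library and of the Tom- library with its number correlated at 0.39 to 0.49 in oil and 0.44 to 0.65 in CCl4, each over 0.1, so the numbers were taken to pair the fractions within a treatment. Across treatments they were 0.025 to 0.087 in Tom- and 0.029 to 0.30 in Tom+ and were not taken to pair.

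The 10 genes, the further lists and the tests were chosen with earlier results of these data known. Named genes are the 10, their paralogs, up to 5 called genes per list, contrast and direction with the largest log2 fold change, and the 5 genes most like Aldh1l2. Outside this rule, Atf3, Chac1, Sesn2, Fgf21 and Gdf15 were named after their values were seen.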

Additional observations from a re-analysis of the deposited data

Results flagged for a closer look

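Shmt2 was lower in Tom+ than in Tom- in 3 of 3 oil pairs and higher in 3 of 3 CCl4 pairs. By the reporter only pair 3 of the oil pairs compares the fractions as labelled, since Tom- oil replicate 1 and Tom+ oil replicate 2 went against their labels. The difference between both contrasts was 0.13 on the log2 scale (standard error 0.11) and 0.12 without both libraries, and it was not tested because the list was chosen on the CCl4 contrast.

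By edgeR's interaction test, 3 of 120 pathway genes (2.5%) had a gap between Tom+ and Tom- that changed from oil to CCl4, each downward. Of all 17121 genes tested 1.17% were called, 37 upward and 164 downward, so that direction was the common one. With the replicate block Vldlr (3.80, adjusted p = 0.000117) and Jdp2 (-2.43, adjusted p = 0.0297) were called too. By the reporter only pair 3 of the oil pairs compares the fractions as labelled, which limits every value with the block given here. Jdp2 had 2 counts in each of Tom- oil replicates 1 and 2. The interaction was -1.34 for Ftcd (standard error 0.17, adjusted p = 0.00738, and 1.03e-05 with the replicate block), -1.58 for Sds (standard error 0.29, adjusted p = 0.0276, and 1.71e-05 with the block) and -1.11 for Sdsl (standard error 0.25, adjusted p = 0.0477, and 0.00147 with the block). Without both oil libraries the values were -1.44, -1.82 and -1.41 (adjusted p = 0.0181, 0.0317 and 0.0248). In that setting 1 serine and glycine gene and 1 ATF4 target were also called higher, and 1 mitochondrial folate gene lower. The zone 1 genes, among them Sds, had a median interaction of -1.20, with 4 of 12 called, and their part in these differences was not tested.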

How the results depend on the processing

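Of 795 alternative values of the fold changes of the 10 genes, 760 stayed on their side of the thresholds or within 1 standard error, 21 lost a call, 4 gained one and 10 moved further, and none of the called values changed sign. The causes of the changes were not tested unless given. For the 10 genes, Tom+ against Tom- in CCl4 gave 0 calls with at least 10 counts in every library, which removes Aldh1l2 from the test (9 counts in 1 library), 2 with the replicate block (Aldh1l2 and Asns), and 0 to 2 when 1 library was left out, 0 without Tom- CCl4 replicate 2 and 2 (Aldh1l2 higher, Ddit3 lower) without Tom- CCl4 replicate 1. The interaction gave 1 with DESeq2 and 1 with the replicate block (Aldh1l2), and both contrasts contain the libraries of the choice, so these counts only describe it. CCl4 against oil in Tom- gave 1 call with limma-voom (Trib3), 4 with the adjusted p-value alone (Psat1, Trib3, Ddit3 and Shmt2), 0 without both oil libraries, and 0 to 2 when 1 library was left out, being 0 without Tom- oil replicate 1 or Tom- CCl4 replicate 3. In Tom+ it gave 1 call without both oil libraries and 1 to 3 when 1 library was left out, being 1 (Aldh1l2) without Tom+ oil replicate 1, Tom+ oil replicate 2 or Tom+ CCl4 replicate 2. Oil gave 0 throughout. For the 125 further genes, oil gave 1 call with the replicate block and 0 to 1 when 1 library was left out, being 1 without Tom+ oil replicate 3. Tom+ against Tom- in CCl4 gave 8 with the adjusted p-value alone and 5 with its 6 libraries. CCl4 against oil in Tom- gave 3 with no filter, 21 with the adjusted p-value alone, 12 with the replicate block and 3 to 7 when 1 library was left out, being 3 without Tom- oil replicate 1 or Tom- CCl4 replicate 3. In Tom+ it gave 24 with the adjusted p-value alone, 7 with the fractions summed and 7 to 13 when 1 library was left out, being 7 without Tom+ oil replicate 1 or Tom+ CCl4 replicate 3.

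Across treatments the numbers were not taken to pair. With them as a block 1694 genes in place of 1356 were called in Tom- and 1119 in place of 897 in Tom+, and among the 10 genes Aldh1l2 joined Psat1 and Trib3 in Tom-. Of the further genes, Fgf21 was then called higher in both fractions (1.23, adjusted p = 0.018, and 1.61, adjusted p = 0.00648). For CCl4 against oil the block changed no other call of the 10 genes. Depth limits the low genes most, with 0 to 22 counts per library for Phgdh, 9 to 412 for Aldh1l2 and 14 to 116 for Psat1.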
